A study of Mus with 4 samples.

Results

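The transforming growth factor beta (TGF-beta) genes described here were 9 of the 31253 genes counted in the libraries, chosen by symbol: the ligands Tgfb1, Tgfb2 and Tgfb3, the receptors Tgfbr1, Tgfbr2 and Tgfbr3, the intracellular mediators Smad1 and Smad3, and the matrix gene Tgfbi. All 9 symbols were found in all 4 libraries. In the RefSeq annotation of GRCm38.p6 (mm10), the 3 genes called below lie on different chromosomes, Tgfb1 at chr7:25687002-25705077, Smad1 at chr8:79338395-79399428 and Tgfbi at chr13:56609586-56639359. The libraries came from dissociated left L4 and L5 dorsal root ganglia (DRGs), which hold the cell bodies of sensory neurons, from wild-type male C57BL/6J mice of 8 weeks. CON replicates 1 and 2 came from naïve mice with no operation. CCI replicates 1 and 2 came from mice with chronic constriction injury, in which loose chromic gut ligatures are tied around the left sciatic nerve, and the ganglia were taken 3 d later. The naïve mice had no sham operation, so the ligatures and the surgery cannot be told apart. The labels give the cell type as Neuron, whereas glia, fibroblasts, mural, immune and endothelial cells made up most of the cells. The labels name collagenase II and frozen cells, and the methods of the study name Liberase and papain. How many mice were pooled into each library is not stated in the sources used here. The p-values thus reflect the variation among these libraries, which may be technical.

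TGF-beta ligands are secreted in a latent form held in the matrix and, once released, bind TGFBR2, which recruits and phosphorylates TGFBR1. TGFBR1 then phosphorylates SMAD2 and SMAD3, which enter the nucleus with SMAD4, while SMAD1 is the mediator mainly of the related bone morphogenetic proteins (BMPs). TGFBR3, or betaglycan, is a co-receptor that presents ligand, TGFB2 above all. Tgfbi encodes a secreted matrix protein that binds collagens and integrins and was named for its induction by TGF-beta. In peripheral nerve the pathway is known for roles in Schwann cells, in fibroblasts and in the response of neurons to axon injury.

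Cells were counted with 10x Genomics droplets, and transcripts with unique molecular identifiers (UMIs). The 4 libraries held 37451 barcodes and between 52074235 and 135009606 UMIs each, and 35113 barcodes passed the filter on cells. CON replicate 2 was the smallest, with 2613 cells kept against 10602 to 11155 in the other libraries, and the most deeply counted, with a median of 8352 UMIs per cell against 2508 to 4552. In neurons alone it had the lowest median, 17220 UMIs per cell against 31650 in CON replicate 1 and 41570 and 33500 in CCI. Pairs of libraries shared between 12 and 31 barcodes. Clusters were named from marker genes, and the names below mean cells like those types: neurons (4863 cells), satellite glia (8396), myelinating Schwann cells (3389), non-myelinating Schwann cells (3096), fibroblasts (1771), pericytes with vascular smooth muscle (1443), immune cells (2147, of which 1324 in a macrophage cluster) and endothelial cells (2286). Levels are given as CPM, the UMIs of a gene per 1000000 UMIs of the class in that library, and are compared between cell types for the same gene only. Each class held the markers of its name in every library, and the 11 neuron markers summed to between 19730 and 24370 CPM in neurons. Neuron markers were also present in satellite glia, Schwann cells, fibroblasts, pericytes, immune cells and endothelial cells. There they summed to 6152 to 13520 CPM in CON replicate 1 and 479 to 1150 CPM in CON replicate 2. In CCI replicates 1 and 2 they summed to 6716 to 11890 CPM and 2893 to 7694 CPM. The part of neuronal RNA in the levels of these classes was not tested. The macrophage cluster also held satellite glia markers, all 7 with UMIs, at 39770 and 44630 CPM in CON and 12910 and 23100 CPM in CCI, above the 10380 to 16030 CPM of its macrophage markers. Most of that sum was Apoe, a lipid carrier gene that macrophages also express, and without it the other 6 satellite glia markers summed to 1083 and 1419 CPM in CON and 592 and 792 CPM in CCI.

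Tgfb1, the ligand best known from immune cells and platelets, was highest in macrophages, at 106 and 181 CPM in CON replicates 1 and 2 and 128 and 185 CPM in CCI replicates 1 and 2. The other immune cells lay between 77.3 and 143 CPM and endothelial cells between 81.0 and 132 CPM. These 3 cell types overlapped one another, and all of their values lay above the highest value in fibroblasts, 38.9 CPM. Below them fibroblasts, neurons, pericytes, non-myelinating Schwann cells, satellite glia and Schwann cells followed, each overlapping the next in this order. Tgfb2, a ligand with roles in heart, vessel and neural crest development, was highest in endothelial cells, with 188 to 292 CPM. Pericytes came next, at 46.7 to 61.1 CPM, below every endothelial value and above every other cell type. Satellite glia lay between 16.8 and 30.6 CPM and neurons between 3.15 and 5.17 CPM. Tgfb3, the third isoform, was highest in pericytes, at 32.8 to 55.9 CPM, overlapping fibroblasts at 12.7 to 39.1 CPM. All other cell types were at 9.67 CPM of Tgfb3 or less. By their means the ligands were thus highest in different cells, Tgfb1 in macrophages, Tgfb2 in endothelium and Tgfb3 in pericytes. Only for Tgfb2 did the highest cell type not overlap the next.

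**Figure D1:**
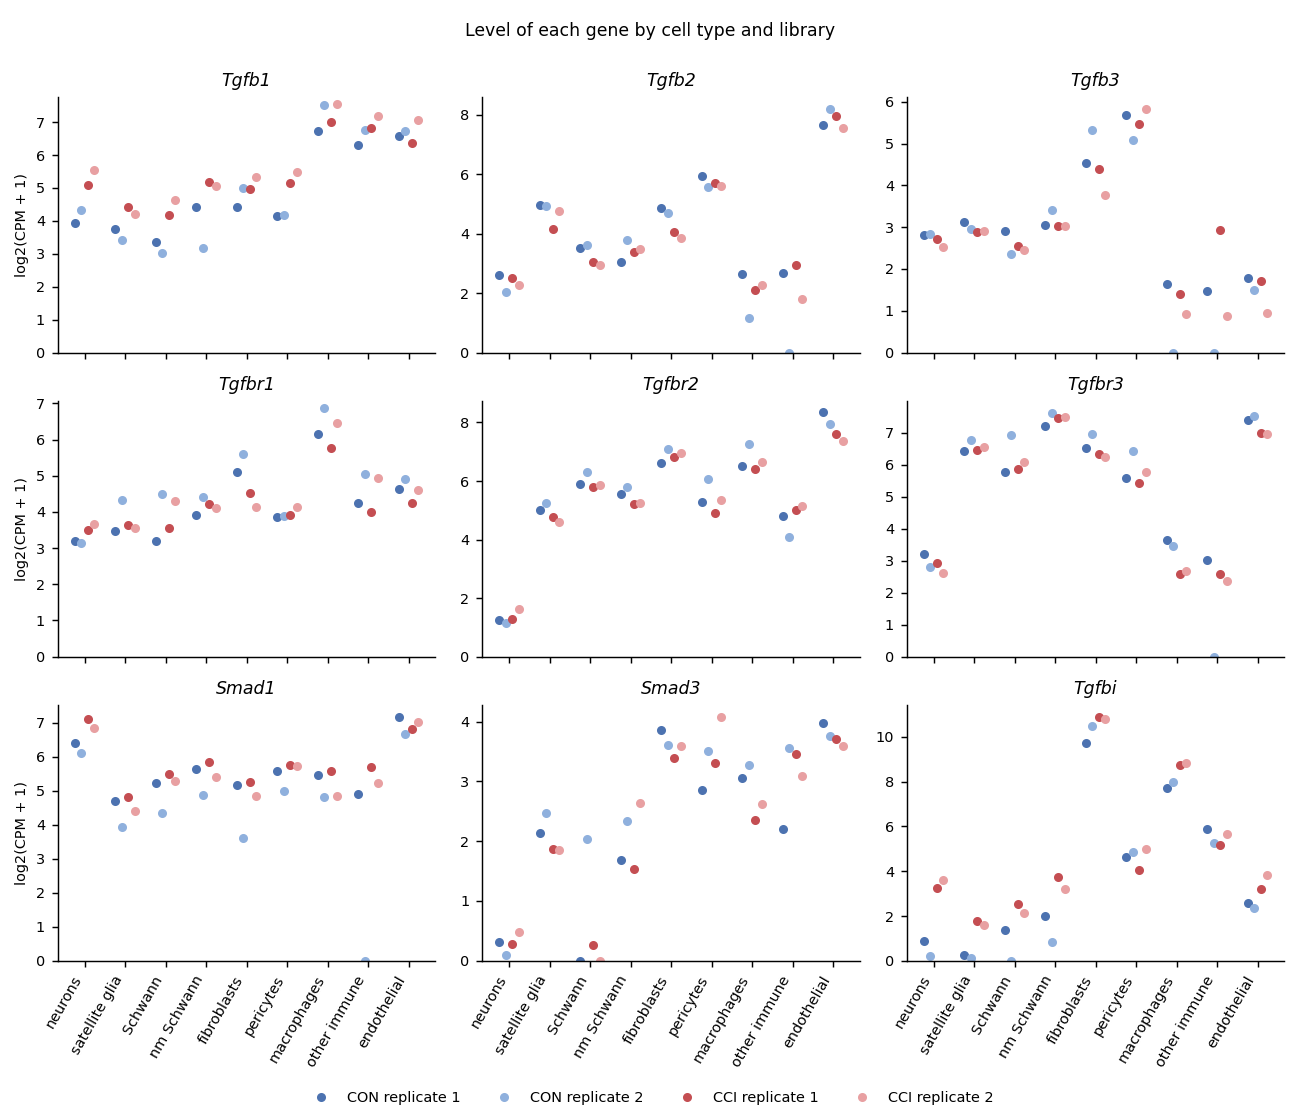
Level of each of the 9 genes as log2(CPM + 1) in 9 cell types (nm Schwann, non-myelinating Schwann cells; other immune, immune cells outside the macrophage cluster), 1 point per library, blue for CON and red for CCI. Tgfbi was highest in fibroblasts (853 to 1879 CPM), Tgfbr2 was lowest in neurons (1.22 to 2.07 CPM), and Tgfbi in neurons was below 1 CPM in both CON libraries and above 8 CPM in both CCI libraries.

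The receptors were spread over the non-neuronal cells and were low in neurons. Tgfbr1, the type I receptor kinase that carries the signal, was highest in macrophages, at 70.2 and 117 CPM in CON and 53.6 and 86.3 CPM in CCI, above all values of the other cell types. Neurons were lowest by their mean, at 7.91 to 11.7 CPM, and overlapped satellite glia, at 10.2 to 19.3 CPM. Tgfbr2, the type II receptor that binds ligand, was highest in endothelial cells, at 330 and 247 CPM in CON and 194 and 166 CPM in CCI. Fibroblasts followed at 96.1 to 134 CPM and macrophages at 84.1 to 152 CPM, with overlap. In neurons Tgfbr2 was at 1.38 and 1.22 CPM in CON and at 1.46 and 2.07 CPM in CCI, from 35 to 128 UMIs per library, and every other cell type was at 16.2 CPM or above. Tgfbr3 was highest in non-myelinating Schwann cells, at 149 to 195 CPM, and in endothelial cells, at 123 to 184 CPM, which overlapped. Satellite glia held 85.1 to 109 CPM of Tgfbr3, whereas macrophages, neurons and the other immune cells held 11.5 CPM or less.

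Smad1 had a different distribution from the receptors. It was highest in endothelial cells, at 101 to 142 CPM, and in neurons, at 68.5 to 138 CPM, and these overlapped. Every neuronal value lay above the highest value in pericytes, 53.2 CPM, the next cell type. Smad3 was at 11.1 to 14.7 CPM in endothelial cells, 9.50 to 13.5 CPM in fibroblasts and 6.21 to 15.8 CPM in pericytes, which overlapped. In neurons Smad3 was near 0, with 11 and 2 UMIs in CON and 19 and 23 UMIs in CCI, or 0.0700 to 0.391 CPM. Of these 55 UMIs, 24 lay in the Pvalb-marked large-fibre neurons (NF2), with 3 and 2 UMIs in CON and 7 and 12 in CCI, although NF2 held 244 of the 4863 neurons.

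Tgfbi was highest in fibroblasts and macrophages. Fibroblasts held 853 and 1438 CPM in CON and 1879 and 1766 CPM in CCI, and at least 1 Tgfbi UMI was counted in 69.4% and 91.1% of CON fibroblasts and in 82.2% and 93.2% of CCI fibroblasts. Macrophages held 208 to 451 CPM, the other immune cells 34.9 to 57.5 CPM and pericytes 15.6 to 30.9 CPM. These 4 cell types did not overlap in this order. Endothelial cells lay between 4.19 and 13.1 CPM and overlapped the neurons and both kinds of Schwann cells below them. Satellite glia lay lower without overlapping endothelial cells, at 0.0905 to 2.39 CPM.

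The main comparison asked how the members changed in neurons after CCI. Tgfbi, Tgfb1 and Smad1 rose, no member fell, and Tgfb2, Tgfb3, Tgfbr1, Tgfbr2, Tgfbr3 and Smad3 did not pass the test. These are 3 of 9 members at an adjusted p under 0.05 by the quasi-likelihood test of edgeR on UMIs summed per library, beside 715 of all 15585 genes tested, or 4.59%. The median log2 fold change of the 9 members was 0.517, against -0.0149 over all genes tested.

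Tgfbi was at 0.847 and 0.175 CPM in CON neurons, from 38 and 5 UMIs, and at 8.53 and 11.1 CPM in CCI neurons, from 749 and 654 UMIs. Both CCI libraries lay far above both CON libraries, with a log2 fold change of 4.24 ± 0.48 (SE) and an adjusted p of 0.00187. The size of this change rested on the few CON UMIs: the log2 fold change was 5.83 without CON replicate 1 and 3.66 without CON replicate 2. Tgfb1 was at 14.4 and 19.0 CPM in CON neurons, from 647 and 543 UMIs, and at 33.2 and 46.1 CPM in CCI neurons, from 2915 and 2713 UMIs. The groups did not overlap, the log2 fold change was 1.33 ± 0.25 (SE), and the adjusted p was 0.0205. Without CCI replicate 2 it was 1.02 with an adjusted p of 0.0662, and the call was lost. Smad1 was at 83.8 and 68.5 CPM in CON neurons and at 138 and 115.5 CPM in CCI neurons, again without overlap. Its log2 fold change was 0.81 ± 0.18 (SE) with an adjusted p of 0.0409, the weakest of these calls. The Smad1 call was lost without CCI replicate 1 (log2 fold change 0.72, adjusted p = 0.187) and without CCI replicate 2 (0.90, adjusted p = 0.112).

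The receptors did not pass the test in neurons. Tgfbr1 was at 8.24 and 7.91 CPM in CON and at 10.3 and 11.7 CPM in CCI, with a log2 fold change of 0.52 ± 0.20 (SE) and an adjusted p of 0.226. Tgfbr2 had a log2 fold change of 0.51 ± 0.34 (SE, adjusted p = 0.494). Tgfbr3, at 8.20 and 6.02 CPM in CON and 6.60 and 5.08 CPM in CCI, overlapped between the groups. The other ligands also missed the threshold, Tgfb2 with a log2 fold change of 0.10 ± 0.28 (SE) and Tgfb3 with -0.16 ± 0.22 (SE).

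Markers of other cells were present in the neuron sums, with the glial lists highest. The 7 satellite glia markers summed to 1689 and 934 CPM in CON neurons and 1192 and 1301 CPM in CCI neurons. The 8 Schwann cell markers summed to 606 and 786 CPM in CON and 591 and 635 CPM in CCI. For the 6 markers of non-myelinating Schwann cells the sums were 704 and 555 CPM in CON and 549 and 441 CPM in CCI. The 7 macrophage markers, all with UMIs, summed to 3.21 and 5.21 CPM in CON neurons and 5.69 and 16.6 CPM in CCI neurons, and to between 10380 and 16030 CPM in macrophages. The 6 fibroblast markers, all with UMIs, summed to 112 and 50.5 CPM in CON neurons and 90.4 and 155 CPM in CCI neurons. Decorin (Dcn) took part in that sum as a leading gene of a PEP1 neuron cluster. Whether RNA of these cells had a part in the levels of Tgfb1 and Smad1 in neurons was not tested. For Tgfbi the ratio to fibroblast markers is given below.

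**Figure D2:**
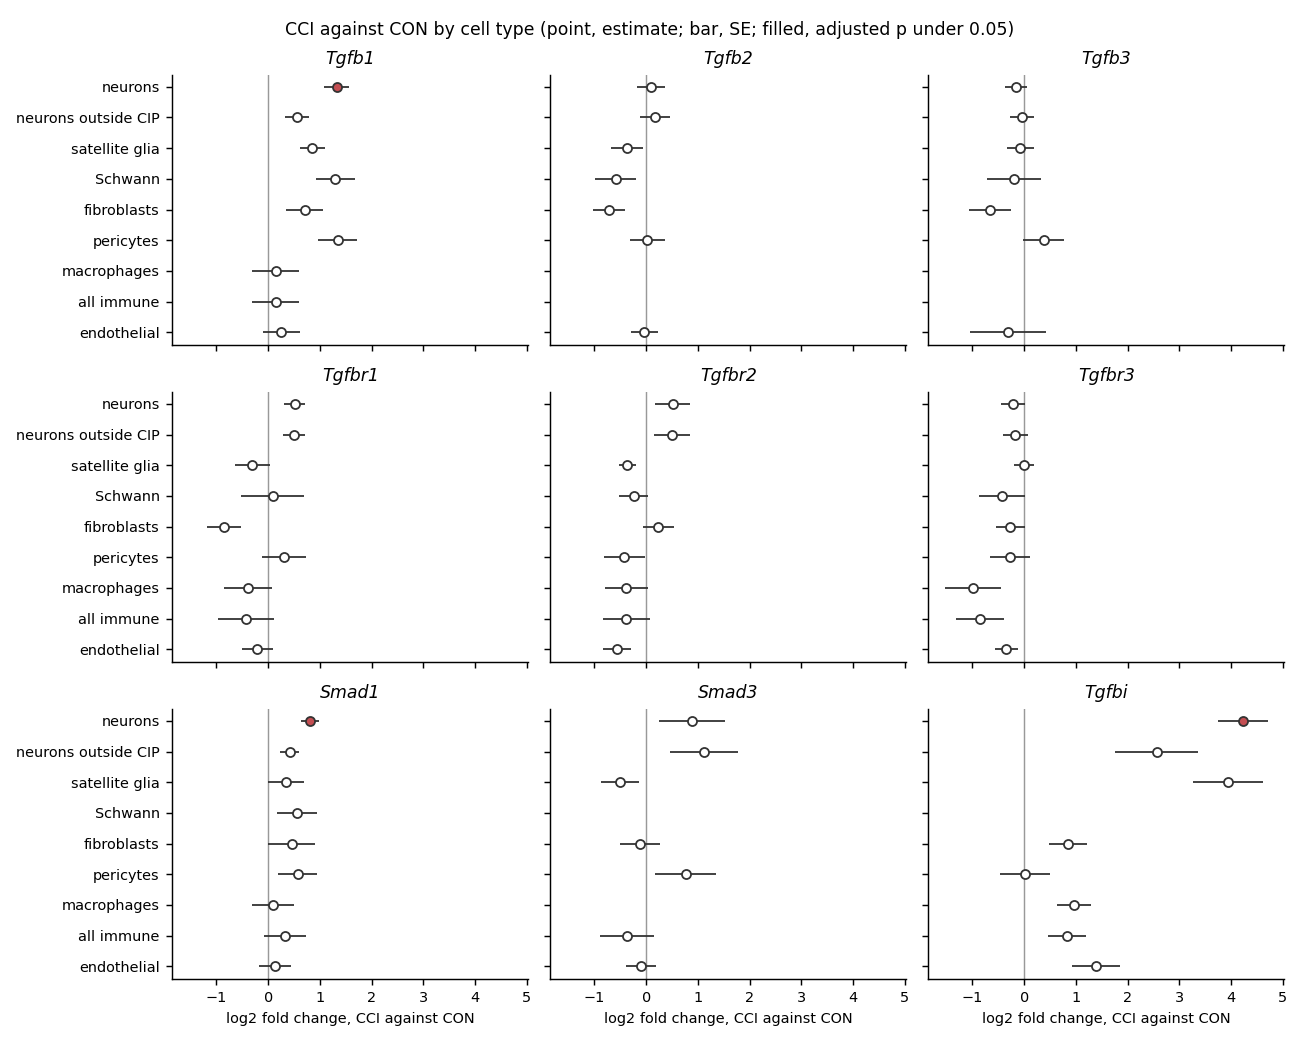
Log2 fold change of each gene, CCI against CON, in 9 sets of cells (point, estimate of edgeR; bar, SE; filled, adjusted p under 0.05; sums with too few UMIs have no point). Filled points are those of Tgfb1 (1.33), Smad1 (0.81) and Tgfbi (4.24) in neurons.

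The neurons were grouped into subtypes with the 9 members and 99 other pathway genes left out of the clustering features. Neurons with markers of the CCI-induced population (CIP: Atf3, Sprr1a, Camk1, Flrt3 and Gpr151) formed 3 named clusters of 413 cells, with 3 and 1 cells in CON and 266 and 143 in CCI. CIP markers also led a cluster with glial genes and a cluster of low UMI count, which brought the total to 690 cells. Since CIP cells were nearly absent in CON, the levels in CIP are a description without a test. In the CCI libraries, cells with CIP markers made up 21.3% and 20.1% of neurons and held 30.4% and 26.7% of all neuronal UMIs. They held 90.8% and 73.2% of the Tgfbi UMIs of neurons, 55.3% and 56.9% of Tgfb1 and 45.4% and 42.1% of Smad1. For Tgfbr1 their share, 27.9% and 25.4%, was near their share of all UMIs.

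Levels in the other subtypes are descriptions with no test, since CON replicate 2 held few cells of several of them, with 10 SST, 12 TRPM8, 21 NF2 and 28 NP2 neurons. Tgfb1 ranged widely between subtypes without CIP markers. Peptidergic PEP1 neurons, marked by Tac1, Calca and Trpv1, held 38.2 and 62.0 CPM in CON and 38.2 and 36.2 CPM in CCI, with overlap. Most of this lay in the PEP1 cluster led by Mymk and Tmc3, at 65.3 and 101 CPM in CON and 58.4 and 56.8 CPM in CCI. NP1 neurons, the Mrgprd-positive non-peptidergic nociceptors, held 0.892 and 0.411 CPM in CON and 3.22 and 5.42 CPM in CCI. The itch-related SST neurons held 1.55 and 2.06 CPM in CON and 7.43 and 16.9 CPM in CCI. NF2 neurons held 16.1 and 27.5 CPM in CON and 28.0 and 81.9 CPM in CCI, with CCI replicate 2 far above the other libraries. CIP neurons held 64.2 and 94.0 CPM in the CCI libraries, and their cluster 16, led by Tnfaip6 and Phox2a, 90.3 and 135 CPM. Tgfb1 in CIP was therefore above every CCI value of NP1, NP2, SST, TRPM8, cLTMR and PEP1, but overlapped NF2.

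Smad1 was highest in CIP neurons of CCI replicate 1, at 213 CPM, and at 187 CPM in replicate 2. The cold-sensing TRPM8 neurons held 122 and 101 CPM in CON and 192 and 198 CPM in CCI, and overlapped CIP. SST neurons held 125 and 123 CPM in CON and 160 and 149 CPM in CCI, and NF2 neurons 45.4 and 40.8 CPM in CON and 108 and 88.7 CPM in CCI. NP1 and NP2 neurons, at 36.2 to 66.3 CPM in all libraries, showed overlapping groups. At least 1 Smad1 UMI was found in 99.6% and 97.2% of CIP cells of the CCI libraries.

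Of the receptors, Tgfbr1 was highest among the named subtypes in PEP1 neurons, at 18.2 and 18.6 CPM in CON and 23.3 and 24.4 CPM in CCI. CIP neurons held 9.77 and 12.0 CPM and NP1 neurons 2.32 to 3.25 CPM. Within CIP, cluster 16 held 19.9 and 20.8 CPM of Tgfbr1 and the Crh-positive cluster 22 held 3.77 and 2.79 CPM. Tgfbr2 was highest in NF2 neurons, at 3.53 and 4.71 CPM in CON and 8.99 and 7.93 CPM in CCI, from only 7, 6, 27 and 27 UMIs. In CIP neurons it was at 0.632 and 1.37 CPM.

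**Figure D3:**
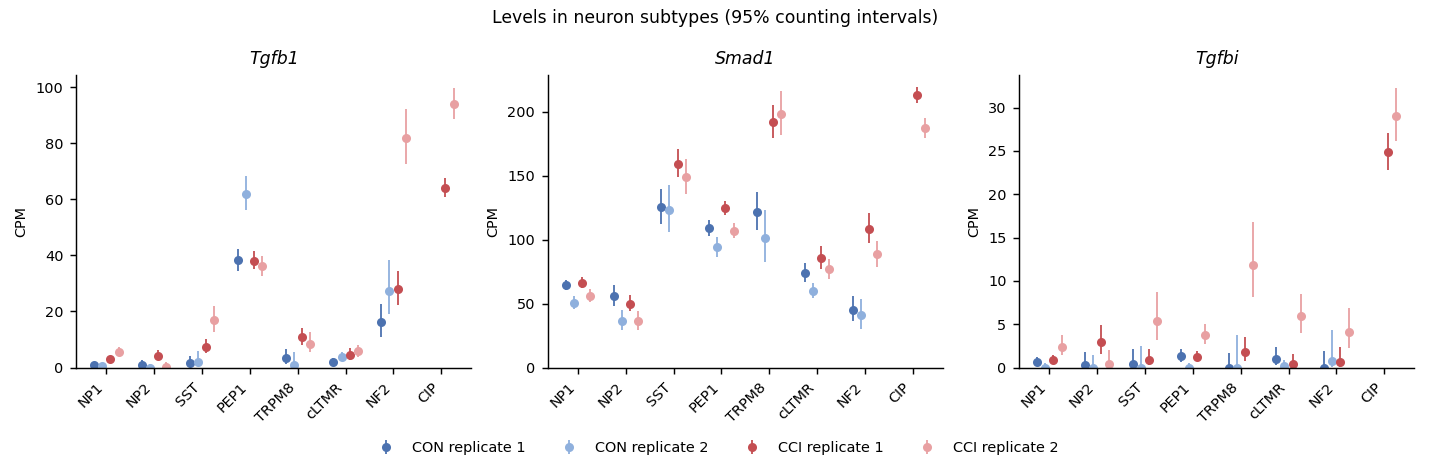
CPM of Tgfb1, Smad1 and Tgfbi in neuron subtypes, 1 point per library with exact 95% Poisson intervals, which cover counting error only; CIP is shown for the CCI libraries alone. Tgfbi stood at 24.9 and 29.1 CPM in CIP, and Tgfb1 at 64.2 and 94.0 CPM.

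Tgfbi in CIP neurons was at 24.9 and 29.1 CPM in CCI replicates 1 and 2, from 512 and 361 UMIs. It was uneven among CIP cells. Cluster 11, led by Anxa1 and Ecel1, held 33.2 and 42.3 CPM, cluster 22 held 21.7 and 27.9 CPM, and cluster 16 held 7.73 and 9.55 CPM. At least 1 UMI was found in 38.7% of 266 and 52.4% of 143 CIP cells, with 3 UMIs in the median positive cell and up to 35 and 26. The tenth of cells with the most Tgfbi held 64.7% and 51.3% of its UMIs. Among satellite glia of the same libraries, the share with a UMI was 1.35% and 1.14%, with a median of 5138 and 6734 UMIs per cell against 79340 and 93910 in CIP. Thinned to 2000 UMIs per cell, the share was 4.21% and 5.92% in CIP, 0.364% and 0.949% in neurons without CIP markers, 0.566% and 0.408% in satellite glia and 85.3% and 89.2% in fibroblasts.

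Since fibroblasts and macrophages hold much Tgfbi, its UMIs were set against theirs. In fibroblasts of CCI replicates 1 and 2 there were 0.226 and 0.143 Tgfbi UMIs per UMI of Lum, Col1a1, Pdgfra, Col3a1 and Dpt, with Dcn left out. In CIP neurons there were 6.10 and 3.41, and in their cluster 11 9.45 and 6.55. Per UMI of the macrophage markers, Tgfbi stood at 0.0414 and 0.0282 in macrophages and at 4.13 and 0.887 in CIP. By that measure neurons without CIP markers, at 0.201 and 0.330, also lay above macrophages. Within CIP, cluster 16 stood at 2 and 0.229. These ratios are descriptions of the CCI libraries, with no test. Neurons without CIP markers stood at 0.158 and 0.152 Tgfbi UMIs per fibroblast-marker UMI, and the 6 subtypes plotted at 0.0370 to 0.276, around the 0.226 and 0.143 of fibroblasts.

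**Figure D4:**
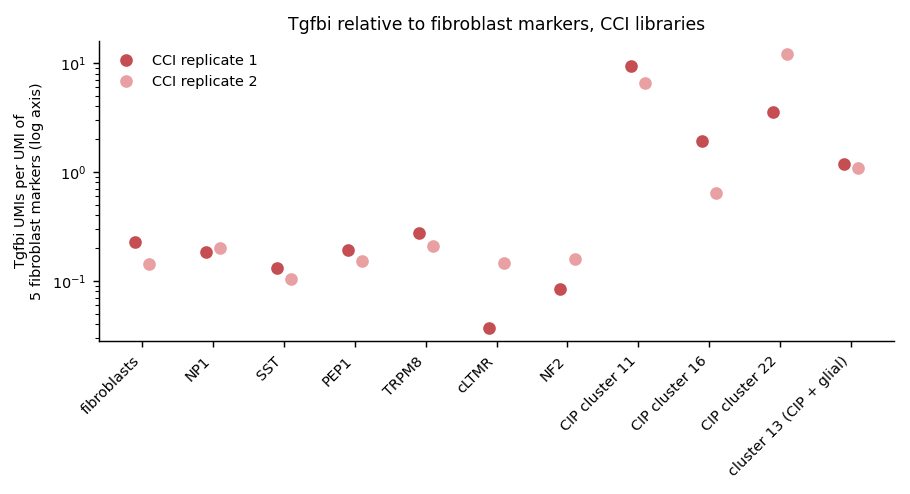
Tgfbi UMIs per UMI of 5 fibroblast markers (log axis) in the CCI libraries, in fibroblasts, 6 neuron subtypes and 4 clusters with CIP markers. The subtypes other than CIP lay at 0.0370 to 0.276, fibroblasts at 0.226 and 0.143, and cluster 11 at 9.45 and 6.55.

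In neurons outside all clusters with CIP markers, no member was called by edgeR, beside 164 of 15287 genes, or 1.07%. At an unadjusted p under 0.05 there were 4 of the 9 members and 1400 of the 15287 genes, and DESeq2 called no member. Tgfb1 was at 14.3 and 19.2 CPM in CON and 21.3 and 27.1 CPM in CCI, without overlap, with a log2 fold change of 0.56 ± 0.24 (SE) and an adjusted p of 0.524. It passed the threshold with the replicate number as a block (log2 fold change 0.56, adjusted p = 0.0484). Smad1 was at 83.7 and 68.4 CPM in CON and 108 and 91.2 CPM in CCI (0.41 ± 0.18 SE, adjusted p = 0.544). Tgfbi was at 0.764 and 0.0706 CPM in CON and 1.13 and 4.06 CPM in CCI, from 34, 2, 69 and 175 UMIs (2.56 ± 0.81 SE, adjusted p = 0.299). This call depended on the libraries and the filter: Tgfbi passed without CON replicate 1 (log2 fold change 5.14), without CON replicate 2 (1.83), without CCI replicate 1 (3.25) and with no filter on low counts (2.56). In these cells the fibroblast markers without Dcn were at 7.46 and 4.17 CPM in CON and 7.15 and 26.7 CPM in CCI. Both Tgfbi and these markers were highest in CCI replicate 2. From CON replicate 1 to CCI replicate 1 Tgfbi was higher and the markers slightly lower. The part of fibroblast RNA in Tgfbi of these neurons was not tested.

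Outside neurons no member passed the threshold in any cell type, and by edgeR no gene of any kind did. By edgeR 0 of 13136 genes were called in satellite glia, 0 of 10599 in Schwann cells, 0 of 10538 in fibroblasts, 0 of 9885 in pericytes, 0 of 10469 in immune cells, 0 of 9100 in macrophages and 0 of 12118 in endothelial cells, which is 0% in each. At an unadjusted p under 0.05 there were 403, 199, 530, 202, 441, 540 and 392 genes in the same order, and DESeq2 called 28, 8, 27, 9, 16, 30 and 16. Members at an unadjusted p under 0.05 numbered 2 in satellite glia, 1 each in Schwann cells, fibroblasts, pericytes, macrophages and endothelial cells, and 0 in immune cells, and DESeq2 called none. The values below are therefore descriptions of members that did not pass.

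Tgfb1 had a log2 fold change above 0.7 in several non-neuronal types. In pericytes it was at 16.6 and 17.3 CPM in CON and 34.4 and 43.4 CPM in CCI (1.35 ± 0.38 SE, unadjusted p = 0.0132 by edgeR). In Schwann cells it was at 9.31 and 7.21 CPM in CON and 17.3 and 23.9 CPM in CCI (1.30 ± 0.39 SE), and in satellite glia at 12.5 and 9.68 CPM in CON and 20.3 and 17.6 CPM in CCI (0.85 ± 0.24 SE). In these 3 types the groups did not overlap. In macrophages, where its level was highest, the groups overlapped (0.14 ± 0.45 SE), and they overlapped in endothelial cells too (0.26 ± 0.36 SE). In pericytes the 7 macrophage markers, all with UMIs, summed to 8.64 to 10.3 CPM in CON and 6.25 to 21.7 CPM in CCI. In Schwann cells these were at 6.18 to 8.90 CPM in CON and 9.14 to 23.3 CPM in CCI. The 11 neuron markers summed to 13520 and 633 CPM in CON and 11890 and 6056 CPM in CCI in pericytes. In Schwann cells the neuron markers were at 13370 and 1150 CPM in CON and 11560 and 7694 CPM in CCI. The part of neuron or macrophage RNA in Tgfb1 was not tested. All of these sums come from the same 4 libraries, so the types are not independent repeats.

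Tgfbi in satellite glia was counted 2 and 1 times in CON and 30 and 39 times in CCI. Summed over the libraries, the CPM ratio was 15.3 with an exact 95% interval of 5.01 to 75.8, which covers counting error only. With the library as the replicate, the log2 fold change by edgeR was 3.94 ± 0.68 (SE, adjusted p = 0.998). The fibroblast markers, 5 of 6 with UMIs, summed to 86.6 and 136 CPM in CON satellite glia and 170 and 157 CPM in CCI satellite glia, and the 7 macrophage markers to 5.59 and 4.88 CPM in CON and 5.18 and 14.6 CPM in CCI. The 11 neuron markers summed to 7168 and 570 CPM in CON satellite glia and 6968 and 2893 CPM in CCI satellite glia. The part of RNA from these other cells in the Tgfbi counts of satellite glia was not tested. In fibroblasts, where it was highest, its log2 fold change was 0.84 ± 0.37 (SE, adjusted p = 0.86), and all CCI values lay above all CON values. In macrophages it was at 208 and 250 CPM in CON and 430 and 451 CPM in CCI (0.96 ± 0.33 SE, adjusted p = 0.818). Other markers also changed there. The satellite glia markers, Apoe among them, were lower in CCI as given above, in the opposite direction to Tgfbi. The 4 markers of proliferating cells, all with UMIs, summed to 98.4 and 63.4 CPM in CON and 491 and 477 CPM in CCI. The part of either change in the Tgfbi level of macrophages was not tested. In endothelial cells it was at 4.91 and 4.19 CPM in CON and 8.24 and 13.1 CPM in CCI (1.39 ± 0.47 SE). The 6 fibroblast markers, all with UMIs, moved with it there, at 55.6 and 26.4 CPM in CON and 135.5 and 145 CPM in CCI, and their part was not tested. In pericytes it overlapped between the groups (0.02 ± 0.48 SE).

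Among the receptors and the other ligands, several log2 fold changes outside neurons were below 0. Tgfbr1 in fibroblasts was at 33.4 and 47.5 CPM in CON and 22 and 16.7 CPM in CCI (-0.85 ± 0.32 SE, adjusted p = 0.86). Tgfb2 in fibroblasts was at 27.8 and 25.1 CPM in CON and 15.5 and 13.6 CPM in CCI (-0.72 ± 0.31 SE), and Tgfb3 at 22.2 and 39.1 CPM in CON and 20 and 12.7 CPM in CCI (-0.66 ± 0.41 SE). In fibroblasts CON and CCI did not overlap for these 3 genes, but edgeR called no gene of any kind there. The share of all genes without overlap was not counted, and CON replicate 2 rested on 45 fibroblasts. In endothelial cells Tgfbr2 was at 330 and 247 CPM in CON and 194 and 166 CPM in CCI (-0.56 ± 0.27 SE, adjusted p = 0.961), and Tgfbr3 at 167 and 184 CPM in CON and 128 and 123 CPM in CCI (-0.34 ± 0.22 SE). In satellite glia Tgfbr2 was at 31.1 and 37.0 CPM in CON and 26.3 and 23.5 CPM in CCI (-0.36 ± 0.17 SE).

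Whether the CCI effect differed between a cell type and neurons was tested as an interaction in 1 edgeR fit over 7 cell types, with the library as a block. The Tgfbi change was smaller than in neurons in fibroblasts by 3.30 ± 0.58 on the log2 scale (SE, difference -3.30, adjusted p = 0.0305), in pericytes (-4.22 ± 0.66 SE, adjusted p = 0.0158) and in immune cells (-3.27 ± 0.58 SE, adjusted p = 0.0246). Tgfbi was the only member called in these contrasts, beside 25 of 14946 genes or 0.167% in fibroblasts, 8 or 0.0535% in pericytes and 22 or 0.147% in immune cells. The differences kept their sign in all 7 alternatives. The calls were lost with no library term, without CON replicate 2, without CCI replicate 1 and without CCI replicate 2, with differences of -2.24 to -3.54 in fibroblasts, -3.49 to -4.54 in pericytes and -2.28 to -3.33 in immune cells. No member was called in satellite glia, where 0.12% of genes were, in Schwann cells with 0.0335% or in endothelial cells with 0.114%. For Tgfbi the difference was -0.32 ± 1.42 (SE) in satellite glia and -2.87 ± 0.66 (SE, adjusted p = 0.148) in endothelial cells, which passed without CON replicate 1 (-4.27) and with no filter on low counts (-2.90). For Tgfb1 the difference was -1.09 ± 0.35 (SE, adjusted p = 0.607) in endothelial cells, so an unequal change was not shown.

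Other genes of the pathway were read from 6 lists in the same neuron fit. On the list of other ligands of the superfamily, 2 of 11 tested genes rose and none fell, of which 1 encodes a ligand subunit. Inhbb, which encodes an activin subunit, went from 0.557 and 0.700 CPM in CON to 18.4 and 22.2 CPM in CCI (5.11 ± 0.28 SE, adjusted p = 4.88e-05). Bmp1, despite its name no BMP ligand but a protease that processes procollagens, went from 1.92 and 1.29 CPM to 9.26 and 7.73 CPM (2.46 ± 0.26 SE, adjusted p = 0.00136). Of the other receptors, 2 of 11 rose: Acvr1, a type I receptor for BMPs and activins, from 9.45 and 9.72 CPM to 25.4 and 21.8 CPM (1.37 ± 0.18 SE), and Acvr1c from 0.312 and 0.0350 CPM to 4.27 and 2.46 CPM (4.18 ± 0.59 SE). The medians of these lists were 0.807 and -0.117.

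Of the 6 other Smads none rose, and Smad9, like Smad1 a mediator of BMPs, fell from 15.98 and 15.99 CPM to 7.76 and 7.95 CPM (-0.95 ± 0.19 SE, adjusted p = 0.0277). Of the inhibitors and modulators, 3 of 16 tested rose, Tgif1 and Fst among them, and none fell. Tgif1, a repressor of SMAD-driven transcription, went from 0.356 and 0.455 CPM to 6.23 and 7.999 CPM (4.23 ± 0.33 SE), and Fst, which binds activins, from 3.74 and 7.07 CPM to 30.2 and 25.4 CPM (2.44 ± 0.31 SE). Of 16 genes of latency and activation tested, 0 were called.

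Of the commonly used TGF-beta target genes, 4 of 30 tested rose in neurons, Timp1, Cdkn1a and Snai2 among them, and none fell, beside 4.59% of all genes called, and the median log2 fold change was 0.626. Timp1, an inhibitor of matrix metalloproteinases, went from 3.56 and 2.48 CPM in CON to 60.2 and 72.9 CPM in CCI (4.53 ± 0.25 SE, adjusted p = 4.88e-05). Cdkn1a, a cell cycle inhibitor, went from 101 and 145 CPM to 338 and 365 CPM (1.58 ± 0.23 SE), and Snai2 from 0.535 and 0.105 CPM to 1.94 and 1.80 CPM (2.52 ± 0.53 SE). These genes are regulated by many other signals as well, and the collagens and contractile genes of the list were not among those called. In neurons without CIP markers the genes of the lists that rose included Timp1, Spp1, Fst, Tgif1, Inhbb and Bmp1. There Inhbb was at 0.562 and 0.282 CPM in CON and 2.78 and 3.78 CPM in CCI (2.93 ± 0.41 SE), and Timp1 at 3.57 and 2.44 CPM in CON and 40.0 and 60.0 CPM in CCI (4.08 ± 0.30 SE). In the other cell types tested edgeR called no gene of any kind, so the lack of called list genes there says nothing about the lists.

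Genes with the most similar pattern were sought over 28 points, 7 cell types in each of 4 libraries, by Pearson's r of log2(CPM + 1). The points share libraries and cell types, so r is a description. Tgfbi was most like Igf1 (r = 0.960), Ccl7 (0.937) and Hsd11b1 (0.930), Tgfb1 like Abracl (0.943), Sting1 (0.930) and Slfn2 (0.911), and Smad1 like Lrrc3b (0.905). Tgfb2 was most like Id1 (0.945), Tgfb3 like Hoxc6 (0.933), Tgfbr1 like Grn (0.907), Tgfbr2 like Triobp (0.945), Tgfbr3 like Lama4 (0.980) and Smad3 like Ccnd2 (0.953).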

How the data were processed

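The authors trimmed reads with fastp, aligned them to mm10 and counted UMIs with Cell Ranger (5.0.1 per the file headers). The deposited matrices give, for 31253 genes and every barcode, counts of UMIs as whole numbers. The filter on cells asked for over 500 genes and less than 20% mitochondrial UMIs. No doublets were removed and no doublet caller was run. Cells were clustered in Seurat 5.3.0 with sctransform 0.4.2 (2000 integration features, 10 principal components, resolution 0.8). Clusters were named from 3 or more markers at 1.5 times the mean of the other cells. Clusters with neuron markers but low UMI counts (7153 barcodes) were set apart. Neurons were clustered again without 108 pathway genes. UMIs were summed per class and library and tested with edgeR 4.0.16 under R 4.3.3 (TMM, filterByExpr, quasi-likelihood test, Benjamini-Hochberg over all genes tested, adjusted p under 0.05). A class needed 20 cells in every library. The alternatives tried were upper-quartile factors, DESeq2 1.42.0, no filter, a replicate block, more than 1000 genes and under 10% mitochondrial UMIs, clusters without integration, low-UMI barcodes added, no library term and each library left out. The fits were tested on simulated data. The members, marker lists and pathway lists were chosen with earlier results of these data known. All 9 members were named, with up to 4 called genes per list and the most similar genes by r. Some genes of the lists are not reported here.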

Additional observations from a re-analysis of the deposited data

Results flagged for a closer look

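The CCI effect on Tgfbi differed from that in neurons in 3 cell types by the interaction test of edgeR. The difference on the log2 scale was -3.301 in fibroblasts, -4.218 in pericytes and -3.27 in immune cells. Tgfbi was at 853 and 1438 CPM in CON fibroblasts and 1879 and 1766 CPM in CCI fibroblasts, and at 0.847 and 0.175 CPM in CON neurons and 8.53 and 11.1 CPM in CCI neurons. These calls were lost when the library term, CON replicate 2, CCI replicate 1 or CCI replicate 2 was left out.

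The 7153 barcodes with neuron markers but low UMI counts were set apart from the neurons and entered their comparison only as an alternative. In these barcodes every CCI value of Tgfb1 and of Smad1 lay above every CON value. These genes were picked by their values, and the other members are not described in these barcodes. The share of all genes with such a difference was not counted. Tgfb1 was at 16.1 and 21.4 CPM in CON and 55.7 and 77.5 CPM in CCI (mean of the CCI libraries 66.62 CPM). Smad1 was at 42.5 and 25.6 CPM in CON and 89.1 and 78.8 CPM in CCI (mean 83.97 CPM). These differences were not tested in these barcodes alone. With the barcodes added to the neurons, the log2 fold change was 1.39 for Tgfb1 (adjusted p = 0.0152 by edgeR) and 0.83 for Smad1 (adjusted p = 0.0326 by edgeR).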

How the results depend on the processing

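With 2 libraries per group and few UMIs for Smad3, Tgfbr2 and Tgfbi in CON neurons, a change of these genes could not be measured closely. The fit with each library left out assumes that a lone library varies like the others. In neurons Tgfbi passed the threshold in all 11 alternatives (log2 fold change 3.66 to 5.83), Tgfb1 in 10 (1.02 to 1.59) and Smad1 in 9 (0.72 to 0.92). No called value changed its sign. Leaving out a library gave 1 to 3 members in neurons and 0 to 1 in neurons without CIP markers, and 0 to 1 members for the interaction of fibroblasts, pericytes, immune and endothelial cells. With no library term 0 members were called in these contrasts, and with no filter 1 in endothelial cells. The cause was not tested, except that with no filter more genes entered the fit.

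With the replicate number as a block, 1847 genes passed in neurons, 560 in neurons without CIP markers with 1 member (Tgfb1), 4 in Schwann cells and 1 in fibroblasts. It changed no other call of a member. Same-numbered libraries deviated together (correlation of deviations 0.265 in neurons, 0.265 to 0.566 over all classes), but the labels give only a number, so the libraries were not treated as paired.

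Counts of all genes called moved more. With no filter on low counts they were 1743 in neurons, 673 in neurons without CIP markers with 1 member (Tgfbi), 3 in satellite glia, 63 in Schwann cells, 181 in fibroblasts, 97 in pericytes, 85 in immune cells, 152 in macrophages and 7 in endothelial cells. DESeq2 gave 281 in neurons without CIP markers, 28 in satellite glia, 8 in Schwann cells, 27 in fibroblasts, 9 in pericytes, 16 in immune cells, 30 in macrophages and 16 in endothelial cells. Clusters without integration gave 52 in neurons without CIP markers and 1 in satellite glia. Leaving out each library gave 485 to 1590 in neurons, 201 to 642 in neurons without CIP markers, 0 to 3 in satellite glia, 0 to 1 in Schwann cells, 4 to 43 in fibroblasts, 0 to 268 in pericytes, 0 to 6 in immune cells, 0 to 4 in macrophages and 0 to 157 in endothelial cells. For the interaction with neurons, no filter gave 53 genes in satellite glia, 17 in Schwann cells, 64 in fibroblasts, 40 in pericytes, 89 in immune cells and 57 in endothelial cells. No library term gave 2, 2, 7, 3, 4 and 2 in the same order, and leaving out a library 0 to 410, 0 to 193, 1 to 76, 1 to 209, 1 to 234 and 0 to 497.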

Other observations

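The members were also read in the clusters of satellite glia and in non-myelinating Schwann cells, which entered no test. In satellite glia cluster 1, led by Hes5 and Aqp4, Tgfb2 was at 36.1 and 30.5 CPM in CON and 16.4 and 24.8 CPM in CCI. In cluster 7, led by Cxcl10, it was at 18.2 and 28.8 CPM in CON and 24.6 and 32.0 CPM in CCI, with overlap. In cluster 3, led by Cnmd and Vldlr, Tgfb1 was at 13.2 and 4.66 CPM in CON and 22.7 and 25.8 CPM in CCI.

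In non-myelinating Schwann cells Tgfb1 was at 20.6 and 8.06 CPM in CON and 35.2 and 32.4 CPM in CCI. Tgfbi in these cells was at 2.94 and 0.806 CPM in CON and 12.4 and 8.22 CPM in CCI, from 4, 1, 26 and 33 UMIs. Tgfbr2 was at 46.4 and 54.0 CPM in CON and 35.7 and 37.4 CPM in CCI. CON and CCI did not overlap for these 3 genes, but the share of all genes without overlap was not counted. For the other members CON and CCI are not given apart in this class, so no result about the members is read from this.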
